A study of Mus musculus with 3 samples.

Results

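The genes of phosphoinositide 3-kinase (PI3K), AKT and mTOR signalling were examined in group 2 innate lymphoid cells (ILC2s), tissue lymphocytes that lack rearranged antigen receptors and make type 2 cytokines. The set holds 38 genes, named by their place in the pathway but with earlier results of these data known. Each of the 38 matched 1 of the 27179 gene IDs of the count table. The series has 1 group of 3 libraries, from wild-type C57BL/6 mice, within a study of the circadian clock in gut ILC3s. The gate required KLRG1, CD127, CD90.2 and CD45 on the surface and removed cells carrying B220, CD11c, CD11b, NK1.1, CD8, CD5 or CD3. For these mice the sources used here give no tissue, hour of collection, treatment, sex or age. The libraries are called mouse 1, 2 and 3 by the number in each sample title, on the assumption that each of the 3 libraries is 1 of the 3 mice the series names. With 1 group there was no contrast between conditions, so the results are levels, differences between genes of a family within each mouse, and the spread between mice.

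PI3K of class I is a heterodimer of a catalytic p110 subunit and a regulatory subunit, and it makes the membrane lipid PIP3 when receptors for cytokines, costimulators or chemokines are engaged. PIP3 brings the kinases PDK1 and AKT to the membrane, while lipid phosphatases remove it. AKT keeps FOXO factors out of the nucleus and inhibits the TSC complex, which frees the small GTPase RHEB to activate mTOR complex 1 (mTORC1) on the lysosome. Amino acids act in parallel through the RAG GTPases, which the Ragulator complex anchors there. In lymphocytes the pathway is known for linking growth factor and nutrient supply to protein synthesis, survival and trafficking.

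The libraries held 17819551 to 26374248 counts, and 12247 to 13471 genes had a count. Levels are counts divided by the library size in units of 1000000 counts (CPM), after TMM scaling of the library sizes, as mean ± SD over 3 mice. A count of 0 allows up to 3 counts, which were 0.132, 0.171 and 0.115 CPM in mice 1, 2 and 3 and cover counting error only. All 12 ILC2 markers examined were at 1 CPM or more in each mouse, led by Id2, Il5 and Icos. Of 12 B and plasma cell markers, 8 reached that level, led by Igkc, Jchain and Igha. The list summed to 12789 CPM in mouse 1 and 63244 CPM in mouse 3, the lowest and highest sums. Pax5 and Ms4a1, which mark B cells, had no count. Cd79b and Cd79a of the same list were among the 8, with means of 141 and 21.3 CPM. Sdc1, also listed, had 1, 3 and 16 counts in mice 1, 2 and 3. Which of these cell types the transcripts came from was not tested. Immunoglobulin genes took 1.04%, 3.89% and 7.81% of the counts of mice 1, 2 and 3. T cell markers, led by Trbc1, Trbc2 and Cd3g, summed to 1625 to 1781 CPM, with 6 of 9 at 1 CPM in each mouse. Cd4 and Cd8a had at most 1 count in any mouse, and Cd5 had 0, 1 and 50 counts. The means of Cd3d and Cd3e were 1.97 and 6.92 CPM, against 321 CPM for Cd3g. NK cell and ILC1 markers summed to 8.47, 244 and 55.4 CPM in mice 1, 2 and 3, most of it Gzma. Myeloid markers (Lyz2, Cd14 and Fcgr3 highest, with Adgre1, S100a8 and S100a9 without a count) and those of epithelium and stroma (Pecam1, Epcam and Col3a1 highest) summed to at most 67.6 CPM. In a sorted bulk sample, fewer cells of a type and less RNA per cell cannot be told apart.

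Of the 38 genes, 26 (68.4%) were detected, meaning at 1 CPM or more in each of the 3 mice. The background was 31.1% of all 27179 gene IDs and 56.1% of the 15092 with a count in some library. Rheb stood far above the rest: it was 46th of all gene IDs by mean CPM and made up 71.6% of the summed mean CPM of the set. Per kb of exon length, the scale on which levels of different genes are compared here, it was at 277 CPM and the next gene, Sesn1, at 23.8 CPM. Of the 12 genes that were not detected, Pik3r6 and Rragd had no count in any mouse. Another 7, Pik3cb, Pik3r2, Pik3r3, Akt1s1, Eif4ebp2, Sesn2 and Rragb, had at most 1 count in at least 1 mouse. Mlst8, Rps6kb2 and Ddit4 had counts in every mouse but were under 1 CPM in at least 1. The median level of the 26 detected genes was 21.6 CPM, against 23.5 CPM over all 8461 detected genes. Per exon kb the medians were 3.59 and 5.44 CPM.

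**Figure D1:**
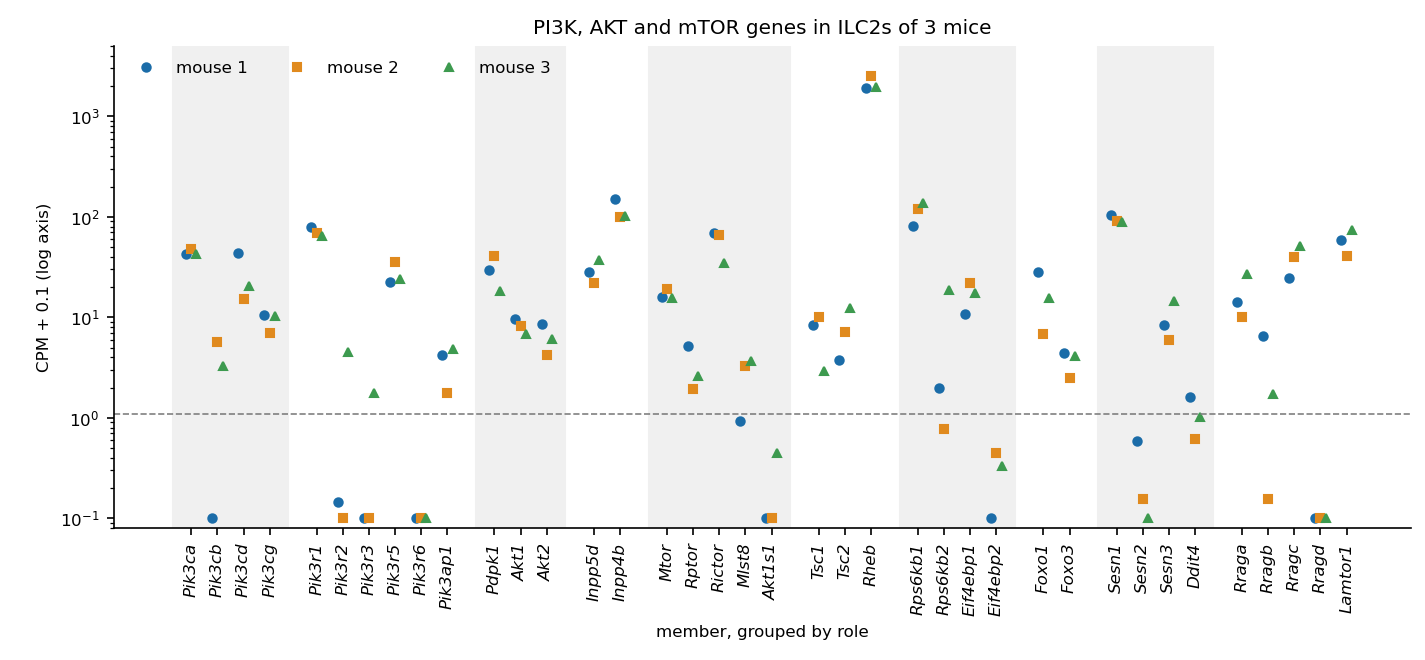
Level of each of the 38 genes in mouse 1 (circles), mouse 2 (squares) and mouse 3 (triangles), as CPM + 0.1 on a log axis, ordered and shaded by role; the dashed line marks 1 CPM. Rheb lies between 1929 and 2525 CPM in the 3 mice, and points on the lowest line are libraries with 0 counts.

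Among the catalytic subunits of class I PI3K, Pik3ca, Pik3cd and Pik3cg were detected and Pik3cb was not. Pik3ca, which encodes the widely expressed p110-alpha, was at 42.9, 48.1 and 42.2 CPM in mice 1, 2 and 3. Pik3cd, which encodes the leukocyte-enriched p110-delta, was at 43.2, 15.2 and 20.2 CPM. The 3 values of Pik3ca lay close together, whereas mouse 1 had the highest Pik3cd level and the other mice were well below it. Per exon kb the means were 4.89 ± 0.354 CPM for Pik3ca and 4.19 ± 2.39 CPM for Pik3cd, and the order changed between mice, Pik3cd being higher in 1 of 3. Differences between genes were taken within each mouse as log2(CPM + 0.5) less the log2 of exon kb, and ratios come from their mean. The difference Pik3cd minus Pik3ca was -0.35 ± 0.83 (SD, n = 3; exact two-sided sign-flip p = 0.75). It was -0.03 with the length of the longest protein-coding transcript and -0.86 with the summed coding length. Pik3cg, the catalytic subunit downstream of G protein-coupled receptors, was at 10.5, 6.88 and 10.2 CPM. Per exon kb it was lower than Pik3cd in all 3 mice, with a mean log2 difference of 1.77 ± 0.56. Pik3cb, which encodes p110-beta, had 0, 98 and 83 counts (0, 5.57 and 3.18 CPM). The limit of 0.132 CPM in mouse 1 was far below the other mice, but it covers counting error only and not the sort or the amplification. The transcript of Pik3cb has stretches of 521 and 522 bases at 99.6% identity in 2 other annotated genes, Gm12978 and Gm12992, and the sources used here do not say how such reads were counted.

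Of the regulatory and adaptor subunits, Pik3r1 and Pik3r5 were clearly present, Pik3ap1 was low, and Pik3r2, Pik3r3 and Pik3r6 were not detected. Pik3r1 (chr13:101680761-101768217, minus strand), the p85-alpha subunit that stabilises the catalytic chain and binds phosphotyrosines, was at 79.7, 69.6 and 64.7 CPM (71.3 ± 7.66). Its relatives Pik3r2 (p85-beta) and Pik3r3 (p55-gamma) had 1, 0 and 115 counts and 0, 0 and 43 counts in mice 1, 2 and 3. Counts of these 2 genes thus came almost wholly from mouse 3, at 4.41 and 1.65 CPM, and Pik3r1 was higher than each in all 3 mice per exon kb. Mouse 3 also had the highest summed level of the B and plasma cell markers. The part of such cells in these values was not tested. In Pik3r3, 1289 exon bases are shared with Gm49337 on the same strand. Pik3r5, the p101 partner of p110-gamma, was at 22.6, 35.5 and 23.8 CPM (27.3 ± 7.15). Pik3r6, the p84 alternative partner, had 0 counts in every mouse. Taking the floor of 3 counts per library for Pik3r6, Pik3r5 was at least 112-fold higher per exon kb. Pik3ap1, an adaptor that links receptors to p85, was at 4.15, 1.65 and 4.76 CPM.

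The kinases that read out PIP3 were all detected at modest levels. Pdpk1, which encodes PDK1, the kinase that phosphorylates AKT in its activation loop, was at 29.2, 40.6 and 18.1 CPM (29.3 ± 11.3). Akt1 was at 9.44, 8.08 and 6.67 CPM (8.06 ± 1.38) and Akt2 at 8.47, 4.15 and 6.02 CPM (6.21 ± 2.17). Akt1 was the higher of the 2 in all 3 mice per exon kb, by 1.19 ± 0.43 on the log2 scale, a 2.28-fold ratio. The difference was 1.15 with the longest transcript, 0.39 without division by length and 0.39 with the coding length, and it had the same direction on each scale. A transcript of Akt2-ps matches Akt2 at 98.6% over 1449 bases, so the split of reads between the 2 genes is uncertain.

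Both lipid phosphatases of the set were detected. Inpp4b (chr8:81342266-82134312, plus strand), a phosphatase that acts on the lipid SHIP1 produces, was at 150, 99.4 and 101 CPM (117 ± 29.0), and mouse 1 was highest. Inpp5d, which encodes the haematopoietic phosphatase SHIP1, was at 28.3, 21.9 and 37.5 CPM (29.2 ± 7.83). Inpp5d was below Inpp4b in all 3 mice per exon kb, by -1.21 ± 0.51 on the log2 scale, a 2.31-fold ratio in favour of Inpp4b. With the coding length the difference was -2.27 in the same direction.

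In the mTOR complexes, the transcript of the mTORC2 component Rictor was far above that of the mTORC1 component Rptor. Mtor, the kinase common to both complexes, was at 15.9, 19.2 and 15.3 CPM (16.8 ± 2.11), a narrow range. Rictor was at 69.1, 65.7 and 34.8 CPM (56.6 ± 18.9), lowest in mouse 3. Rptor was at 5.03, 1.82 and 2.49 CPM (3.11 ± 1.69), and per exon kb its highest value, 0.373 CPM, was under the lowest of Rictor, 2.06 CPM. The log2 difference per exon kb, Rptor minus Rictor, was -3.69 ± 0.71, which is 12.9-fold in favour of Rictor. Mlst8, a subunit of both complexes, was at 0.838, 3.18 and 3.57 CPM. Its exons overlap 997 bases of Bricd5 on the opposite strand, but Bricd5 had 0 counts in every mouse. Akt1s1, which encodes the AKT substrate and mTORC1 inhibitor PRAS40, had 0, 0 and 9 counts.

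The TSC complex was low and its target RHEB was the most abundant gene of the set. Tsc1, the scaffold of the complex, was at 8.29, 9.95 and 2.84 CPM. Tsc2, its GTPase-activating subunit, was at 3.66, 7.05 and 12.2 CPM. Both were higher in mouse 2 than in mouse 1, but in mouse 3 Tsc2 was highest and Tsc1 lowest. Their log2 difference per exon kb, Tsc1 minus Tsc2, was -0.42 ± 1.59 (exact two-sided sign-flip p = 1.0), so neither was higher beyond the spread between mice. It was 0.50 with the coding length. Tsc2 shares 693 exon bases (7.2% of its exons) with Pkd1 on the opposite strand, and Pkd1 had at most 11 counts. Rheb (chr5:24802823-24842361, minus strand) was at 1929, 2525 and 1952 CPM (2135 ± 337). The 3 mice lay within a 1.31-fold range. Per exon kb its level was 277 ± 43.7 CPM, with an exon union of 7721 bases, and per kb of the longest protein-coding transcript, which has 1784 bases, it was 1197 ± 189 CPM. It ranked at the top of the 38 on both scales. No other annotated transcript matched that of Rheb at 90% identity over 200 bases or more.

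Of the mTORC1 substrates, the forms encoded by Rps6kb1 and Eif4ebp1 were present, and their relatives were low or nearly absent. Rps6kb1 (chr11:86498869-86544885, minus strand), the S6 kinase S6K1 that promotes translation, was at 80.2, 120 and 136 CPM (112 ± 29.0), lowest in mouse 1. Rps6kb2, which encodes S6K2, was at 1.90, 0.682 and 18.5 CPM, from 43, 12 and 483 counts. Nearly all of the Rps6kb2 counts thus came from mouse 3, and its mean was 7.03 CPM with that mouse and 1.29 CPM without it. Rps6kb1 was higher per exon kb in all 3 mice, by 4.12 ± 1.92 on the log2 scale, and the difference in mouse 3 alone was 2.10. Rps6kb2 shares 1224 exon bases (23.69% of its exons) with Ptprcap on the opposite strand, and the libraries do not mark strand. Ptprcap, named here after its values were seen, was at 575, 610 and 641 CPM, 1.11-fold from lowest to highest. Eif4ebp1, the translation repressor 4E-BP1 that mTORC1 switches off, was at 10.8, 22.1 and 17.4 CPM (16.8 ± 5.68). Eif4ebp2 had 0, 6 and 6 counts, and Eif4ebp1 was higher per exon kb in all 3 mice. A transcript of Gm14143 matches Eif4ebp1 at 93.3% over 357 bases.

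Both FOXO factors of the set, which AKT holds in the cytoplasm, were detected. Foxo1 was at 28.0, 6.77 and 15.4 CPM (16.7 ± 10.7) and Foxo3 at 4.28, 2.39 and 4.07 CPM (3.58 ± 1.04). Mouse 2 was lowest and mouse 1 highest for each, and the Foxo1 mean was 10.96 CPM without mouse 1. Foxo1 exceeded Foxo3 per exon kb in every mouse, by 1.71 ± 0.63 on the log2 scale, a 3.27-fold ratio. The antisense gene Gm20402 covers 674 bases (7.78%) of the Foxo1 exons.

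The sestrins, stress-inducible proteins that restrain mTORC1 when leucine is scarce, were represented mainly by Sesn1. Sesn1 (chr10:41810574-41908436, plus strand) was at 104, 91.7 and 88.7 CPM (94.7 ± 7.94), with little spread, and was the 2nd of the 38 per exon kb at 23.8 ± 1.99 CPM. Sesn3 was at 8.34, 5.80 and 14.3 CPM, and Sesn2 had 11, 1 and 0 counts. Sesn1 was above Sesn3 in every mouse, by 5.28 ± 0.67 on the log2 scale per exon kb, a 38.8-fold ratio. The exon union of Sesn3 is long, at 15269 bases, and the difference was 3.09 with the coding length and 4.60 with the longest transcript. Ddit4, which encodes the hypoxia- and glucocorticoid-inducible mTORC1 inhibitor REDD1, was at 1.50, 0.512 and 0.920 CPM, so all 3 mice were near the detection limit.

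The RAG GTPases act as a dimer of RAGA or RAGB with RAGC or RAGD, and 1 partner of each kind was detected. Rraga was at 14.0, 9.90 and 26.9 CPM (16.9 ± 8.87), and Rragb had 146, 1 and 42 counts (6.44, 0.0569 and 1.61 CPM). Rraga was higher per exon kb in every mouse, and the gap was narrowest in mouse 1, where the log2 difference per exon kb was 1.54 against 4.70 and 4.18 in mice 2 and 3. Rragc (chr4:123917433-123936997, plus strand) was at 24.4, 39.5 and 50.6 CPM (38.1 ± 13.2), and Rragd (chr4:32982998-33022180, plus strand) had 0 counts in every mouse. With the floor of 3 counts per library for Rragd, Rragc was at least 285-fold higher per exon kb. Lamtor1 (chr7:101905837-101911903, plus strand), the lipid-anchored subunit that tethers Ragulator to the lysosome, was at 58.2, 40.8 and 73.3 CPM (57.5 ± 16.3). Rraga, Rragc and Lamtor1 were each highest in mouse 3. Lamtor1 shares 600 exon bases (18.66%) with Lrrc51 on the opposite strand, and Lrrc51, also named after its values were seen, was at 7.28, 4.66 and 12.1 CPM. Transcripts of Gm5510 and Gm13077 match Lamtor1 at 98.4% and 96.5% over 486 and 484 bases.

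Across the 17 pairs of related genes compared, 15 kept 1 direction in all 3 mice, and the exceptions were Pik3cd with Pik3ca and Tsc1 with Tsc2. No share over other pairs of genes was taken, so the count describes these pairs only. With 3 mice the smallest exact two-sided sign-flip p is 0.25, which is the value of each of the 15 pairs (0.283 after Benjamini-Hochberg adjustment over 17 pairs). No pair could therefore pass 0.05, and the differences are read against their SD. A mean and a fold are given for the 9 pairs in which both genes had more than 3 counts in every mouse. The remaining 8 pairs had a gene at or below that floor, and in each the gene written first was higher in 3 of 3 mice.

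**Figure D2:**
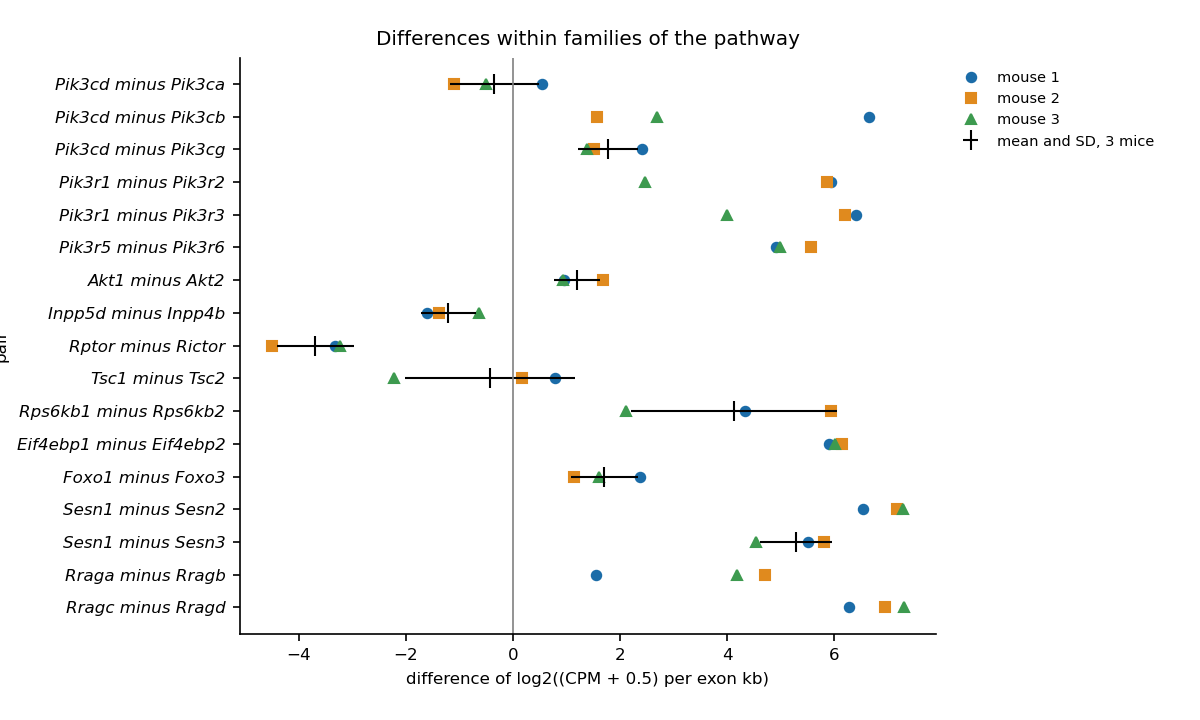
Log2 difference per exon kb, as log2(CPM + 0.5) minus the log2 of exon length, for 17 pairs of related genes in mouse 1 (circles), mouse 2 (squares) and mouse 3 (triangles); bars are the mean and SD over 3 mice for the 9 pairs without a gene at the floor. Points right of 0 mean that the gene written first was higher; Pik3cd with Pik3ca and Tsc1 with Tsc2 are the pairs whose points fall on both sides of 0.

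Promoter sequences are shown for 4 genes of the lysosomal branch, since Rheb, Lamtor1 and Rragc were among the 5 highest of the 38 per exon kb while Rragd had no count. The core clock factors CLOCK and BMAL1, the lysosomal regulator TFEB and MYC are known to bind the E-box, CACGTG, which reads the same on both strands. Each line gives the 250 bases before the annotated start, 5′ to 3′ on the strand of the gene, from RefSeq on GRCm38.p6, with the E-box in capitals. The windows are chr5:24842362-24842611 (minus strand) for Rheb, chr7:101905587-101905836 for Lamtor1, chr4:123917183-123917432 for Rragc and chr4:32982748-32982997 for Rragd, the last 3 on the plus strand.
Rheb: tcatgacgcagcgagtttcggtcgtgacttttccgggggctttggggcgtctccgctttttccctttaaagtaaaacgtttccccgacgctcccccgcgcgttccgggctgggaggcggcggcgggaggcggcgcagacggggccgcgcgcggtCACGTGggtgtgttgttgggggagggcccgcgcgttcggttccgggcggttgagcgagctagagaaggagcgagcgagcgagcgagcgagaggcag
Lamtor1: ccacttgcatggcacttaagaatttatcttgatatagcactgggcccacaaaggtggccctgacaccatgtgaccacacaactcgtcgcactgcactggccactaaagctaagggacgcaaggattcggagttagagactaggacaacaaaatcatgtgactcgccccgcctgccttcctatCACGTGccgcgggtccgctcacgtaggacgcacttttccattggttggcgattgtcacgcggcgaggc
Rragc: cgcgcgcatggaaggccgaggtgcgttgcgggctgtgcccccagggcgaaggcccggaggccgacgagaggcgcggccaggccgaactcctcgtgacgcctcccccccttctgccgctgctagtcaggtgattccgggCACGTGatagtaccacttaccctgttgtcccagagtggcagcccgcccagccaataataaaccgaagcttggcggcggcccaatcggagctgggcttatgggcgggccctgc
Rragd: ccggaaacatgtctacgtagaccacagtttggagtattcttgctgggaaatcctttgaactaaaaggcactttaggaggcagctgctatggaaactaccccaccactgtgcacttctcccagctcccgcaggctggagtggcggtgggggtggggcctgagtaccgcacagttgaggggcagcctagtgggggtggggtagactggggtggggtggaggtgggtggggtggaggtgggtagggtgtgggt
The E-box of Rheb starts 96 bases before the start site, that of Lamtor1 68 bases and that of Rragc 112 bases before it, and the Rragd window has none. In the longer window of 300 bases, which includes 50 after the start, 5 of the 35 members with a RefSeq promoter entry held an E-box, against 8.09% of 27025 genes. Pik3ap1 and Rragb, the others with an E-box, were low or not detected. Sesn1, Rps6kb1 and Rraga, 2nd, 4th and 6th of the 38 per exon kb, had an entry but no E-box. The motif thus did not go with level throughout, and a relation between motif and level was not tested. The FOXO motif GTAAACA, searched on both strands, was found in Akt1, Pik3cg and Sesn1, against 4.05% of all genes. The amino acid response element TGATGCAA was found in Pik3cd alone among the 35, against 1.03% of all genes. Rps6kb2, Eif4ebp1 and Pik3r6 had no entry. A match describes the letters of the window and does not show binding.

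The spread between mice was compared with that of genes of like abundance. In edgeR, each gene's quasi-dispersion was set against the abundance trend and tested with an upper-tail F test over 9175 genes, of which 17 (0.185%) passed an adjusted p of 0.05 and 404 (4.4%) an unadjusted p of 0.05. Of the 29 members tested, 0 passed the adjusted threshold and 1 the unadjusted. That gene was Rps6kb2, with a log2 ratio to the trend of 3.00 (edgeR adjusted p = 0.976, unadjusted 0.00832). Its adjusted p ranged from 0.156 without mouse 1 to 0.996 without mouse 3, the mouse that held nearly all of its counts. Foxo1, Pik3cd, Rictor and Mlst8 followed, with log2 ratios of 1.28, 1.22, 0.93 and 0.66 and edgeR adjusted p from 0.976 to 0.989. Foxo1 and Pik3cd were both highest in mouse 1 and lowest in mouse 2. Junb, Dusp1 and Fos, the highest of the immediate early and heat shock genes listed, were also lowest in mouse 2. Junb and Dusp1 were highest in mouse 3, however, and other genes of the list were lowest in mouse 1 or mouse 3. Of its 11 detected genes, 3, 2 and 6 were highest in mice 1, 2 and 3, against 31.9%, 33.7% and 34.4% of all detected genes. The list summed to 2717, 1616 and 3846 CPM in mice 1, 2 and 3. The part of these listed genes in the spread of Foxo1 and Pik3cd was not tested. At the other end, Pik3ca, Mtor, Akt1 and Sesn1 had log2 ratios of -4.03, -3.65, -3.30 and -2.92, so their 3 values lay closer together than the trend. They were picked as the lowest of the 29 members, and a spread below the trend was not tested. The median ratio of the 29 members was -0.24 against -0.41 over all genes tested, and the median coefficient of variation of the detected members was 31.2% against 28.5% over all detected genes.

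**Figure D3:**
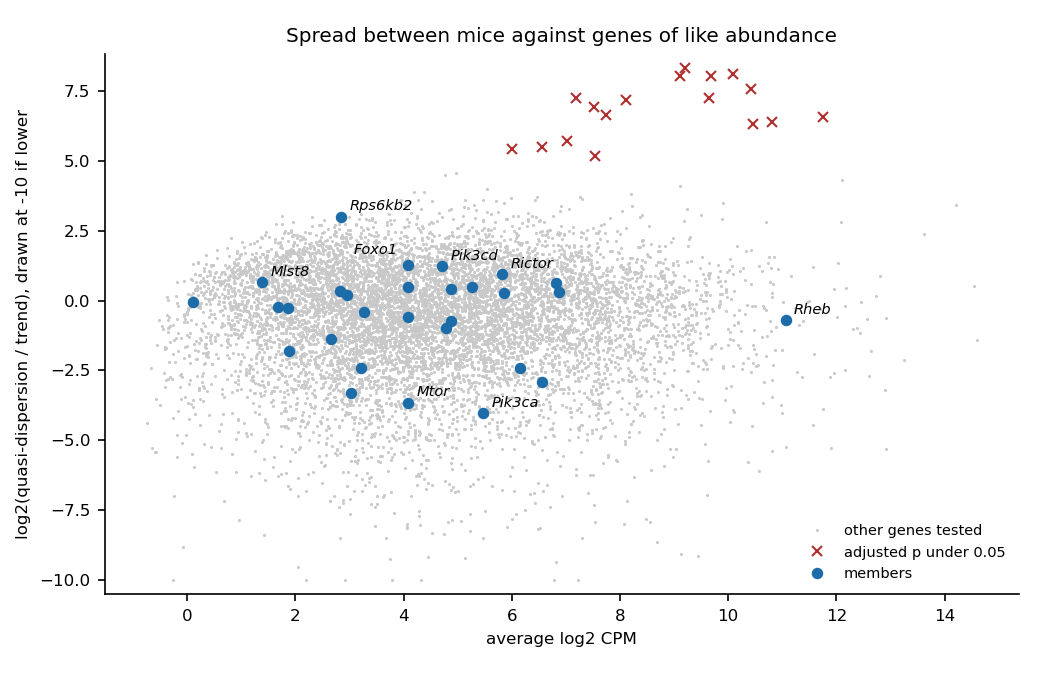
Log2 ratio of quasi-dispersion to trend (y axis) against average log2 CPM (x axis) for 9175 genes over 3 mice; large points are the 29 members tested, crosses the 17 genes with an adjusted p under 0.05 and small dots the other genes. The members spread through the cloud of other genes, with Rps6kb2 at 3.00 the highest and Pik3ca at -4.03 the lowest.

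In 12 of the 26 detected members the highest mouse was more than 2 times the lowest, against 38.5% of all detected genes. Of the 26, 11 were highest in mouse 1, 7 in mouse 2 and 8 in mouse 3, where 31.9%, 33.7% and 34.4% of all detected genes were highest. Pearson's correlation of log2 CPM between mice was 0.912 to 0.926 across the 38 genes, which share their libraries and are not independent. The common biological coefficient of variation of the libraries was 45.1%.

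Lists that do not overlap the 38 genes described the wider pathway. Of 57 further pathway genes with a row in the table, 41 (71.9%) were detected, and of the 43 tested in edgeR 0 passed the adjusted and 0 the unadjusted threshold for variability. Among 18 further PI3K and AKT genes, 13 were detected. Among the highest per exon kb were Sgk1, a PDK1-dependent kinase related to AKT (31.1 ± 9.18 CPM), Pik3c3, the vacuolar PI3K of autophagy (21.0 ± 4.58 CPM), and the AKT substrate Gsk3b (23.6 ± 9.75 CPM). Pik3c2g had no count in any mouse. Among 17 partners and targets of the mTOR complexes, 12 were detected, led by the cap-binding protein gene Eif4e (164 ± 33.0 CPM), Rps6, the ribosomal protein phosphorylated by S6 kinases (29.3 ± 2.79 CPM), Pdcd4 (57.0 ± 8.83 CPM) and Eif4b (49.4 ± 9.73 CPM). Transcripts of 15 other genes match Rps6 at 90% identity or more, so its level is uncertain. Among 22 genes of amino acid and energy sensing with a row, 16 were detected, led by the Ragulator genes Lamtor2 (271 ± 27.2 CPM), Lamtor5 (152 ± 18.9 CPM) and Lamtor4 (46.9 ± 9.84 CPM) and the arginine sensor Castor1 (32.5 ± 16.6 CPM).

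All 11 receptors listed as inputs to PI3K were detected, led per exon kb by the common gamma chain Il2rg (5527 ± 813 CPM), the chemokine receptor Ccr8 (1754 ± 439 CPM), the costimulator Icos (1667 ± 158 CPM) and Il7r (1058 ± 195 CPM), whose protein CD127 was part of the gate. The list's summed level was 9632 to 11822 CPM. Of 15 genes listed as FOXO targets, 13 were detected, led per exon kb by Il7r, Sod2 (297 ± 21.3 CPM), Gadd45a (46.1 ± 11.4 CPM) and Cited2 (31.9 ± 10.4 CPM). Of the 13, 8 were highest in mouse 1, 0 in mouse 2 and 5 in mouse 3, against 31.9%, 33.7% and 34.4% of all detected genes. For the 12 ILC2 markers these counts were 8, 1 and 3, and for the 11 receptors 7, 2 and 2. Il7r is in each of these lists. For the 41 further pathway genes detected they were 11, 18 and 12. By lowest mouse, 2 of the FOXO targets were lowest in mouse 1, 7 in mouse 2 and 4 in mouse 3. No share over all genes was taken for the lowest mouse. Foxo1 was highest in mouse 1 and lowest in mouse 2, and its part in the levels of the listed genes was not tested. The summed level of the list, of which Il7r is the greater part, was 1844, 1651 and 1382 CPM in mice 1, 2 and 3.

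**Figure D4:**
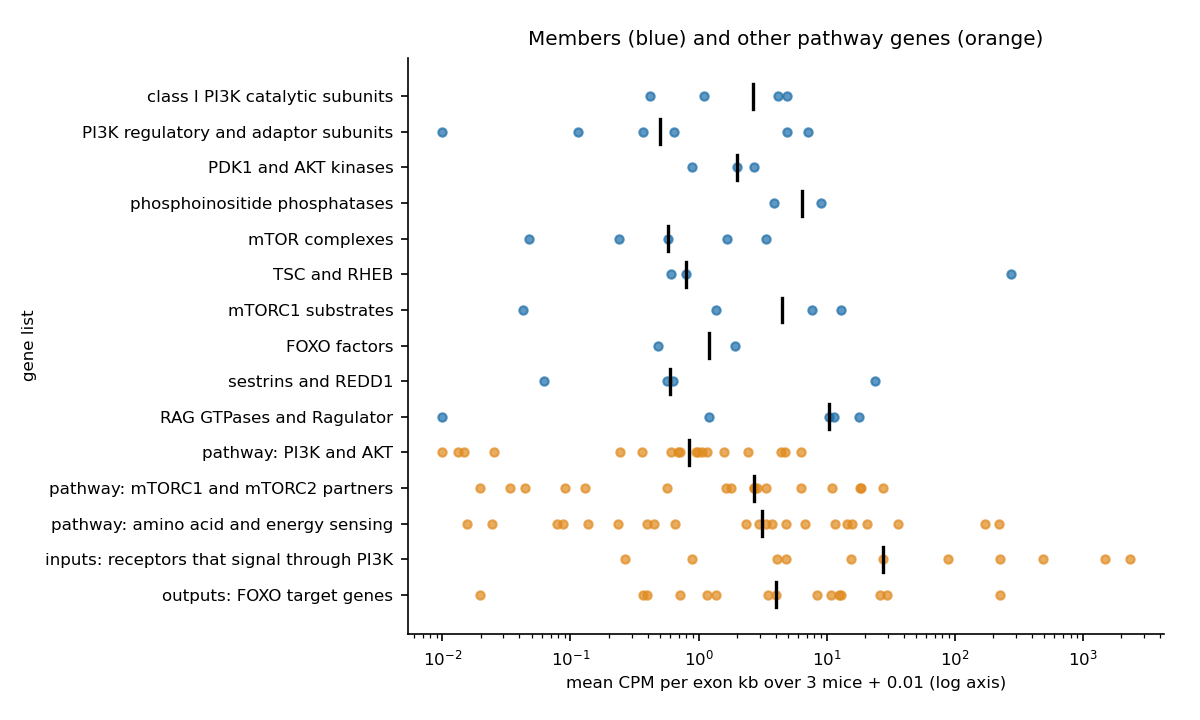
Mean level over 3 mice of each gene in CPM per exon kb + 0.01 on a log axis, for the 38 members by role (blue) and for the other pathway, input and output lists (orange); black bars are list medians. Rheb, at 277, is the rightmost blue point, and the receptor list has a median of 27.4.

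The members that were not detected had transcripts of higher median GC content. The median GC content of the longest protein-coding transcript was 49.3% in the 26 detected members and 55.1% in the 12 others, against 49.1% and 51.5% in all genes with a count. Across the 38 members, GC content and log2 level per transcript kb had a Pearson's r of -0.31 and a Spearman's rho of -0.31, against -0.12 and -0.13 over 12732 genes with a count. These are descriptions across genes that share libraries, transcript length and amplification, and the part of GC content in the levels was not tested. The backgrounds leave out genes without a count, whereas the members include Pik3r6 and Rragd, which had none, so the sets are not fully alike. Of the 5 most GC-rich members, Akt1s1, Pik3r2, Sesn2 and Ddit4 were not detected and Akt1, with 59.7% GC, was. The next by GC content, Pik3cd (57.0%), Rptor (56.5%), Lamtor1 (56.5%) and Pik3r5 (56.3%), were all detected. Pik3r6 (56.1%) and Rps6kb2 (55.6%), which come after them, were not. No share over all genes of like GC content was taken.

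**Figure D5:**
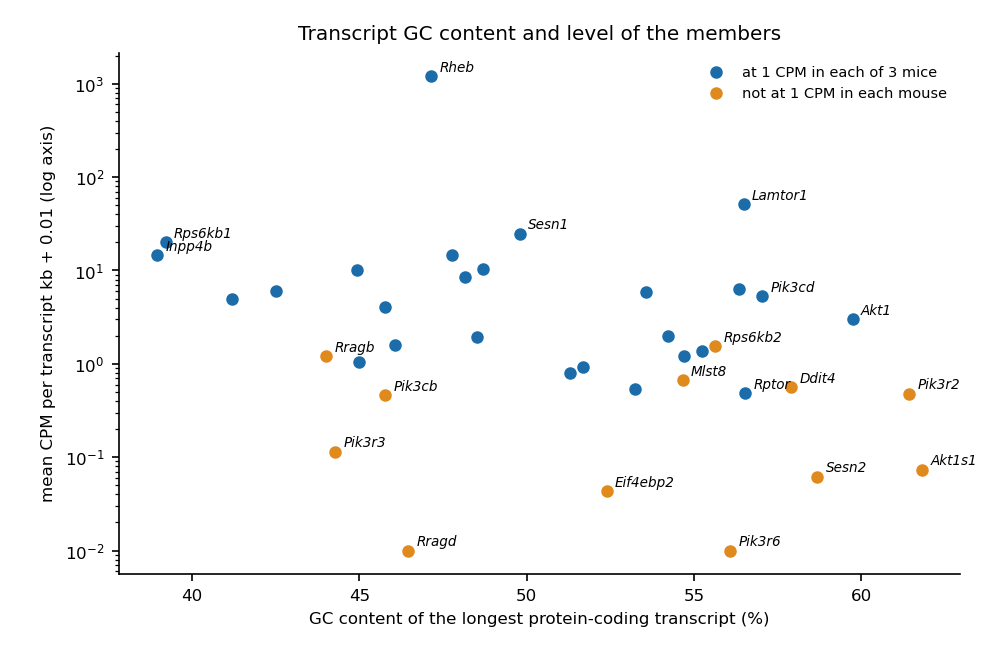
Mean level over 3 mice in CPM per transcript kb + 0.01 on a log axis against the GC content of the longest protein-coding transcript, for the 38 members; blue points reached 1 CPM in each mouse and orange points did not. Orange points extend across the GC range from Rragb at 44.0% to Akt1s1 at 61.8%.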

How the data were processed

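RNA sequencing of sorted ILC2s from 3 wild-type mice was analysed as 1 group of 3 libraries, made with an ultra-low-input SMARTer kit that amplifies cDNA and does not mark strand. The table deposited by the authors holds raw read counts by Entrez gene ID, 1 column for each library. CASAVA 1.8.2, STAR 2.3.0 and the mm10 build are named in the submitters' processing notes. The sources used here give neither the counting program nor its annotation nor the treatment of reads with several matches.

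Symbols and gene coordinates came from RefSeq GRCm38.p6 by ID (25275 of 27179 matched). Exon unions, coding lengths and longest protein-coding transcripts came from GENCODE M21 (24861 IDs matched). Of 187 list genes 186 had a row, and Samtor is not analysed here. Near-identical transcripts were found with blastn 2.17.0 (at least 90% identity over 200 bases).

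CPM used TMM in edgeR 4.0.16 under R 4.3.3. Pairs of genes were compared within each library on log2(CPM + 0.5) minus log2 exon kb, with an exact two-sided sign-flip test. Variability was tested with an intercept-only edgeR quasi-likelihood fit after filterByExpr (minimum count 10), which left 9175 genes, with Benjamini-Hochberg adjustment at 0.05. The labels say of the replicates only that there were 3 mice, so p-values measure the spread between these samples, which includes the sort and the amplification. Reads carried no molecular identifiers, and intervals and floors cover counting error only.

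The text names all 38 members and both genes of every pair. Of the other pathway, input and output lists it names the 4 highest per exon kb and genes without a count, and of the marker and state lists the 3 highest by CPM, except for genes that are not reported here. For variability it names the 5 members with the lowest p. Genes that overlap or resemble a member, and the members with the lowest spread, were named after their values were seen. So were Cd79a, Cd79b and Sdc1 of the B and plasma cell markers. The members and lists were chosen with earlier results of these data known. Alternatives were other scalings, detection minima, pseudocounts and lengths, DESeq2 1.42.0 and limma 3.58.1 in place of edgeR, and leaving out each mouse.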

Additional observations from a re-analysis of the deposited data

How the results depend on the processing

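The number of detected members was 26 with TMM, without it, with DESeq2 size factors and without immunoglobulin genes, 26 to 28 without 1 mouse, 29 at 0.5 CPM and 20 at 5 CPM. At a minimum of 5 CPM, 26 of the other pathway genes were detected in place of 41. Other scalings moved no member mean by more than 5.0%. Leaving out 1 mouse moved 9 means by over 1.5 times: those of Foxo1, Rragb and Sesn2 without mouse 1, Pik3cb and Eif4ebp2 without mouse 2, Rps6kb2 without mouse 3, and Akt1s1, Pik3r2 and Pik3r3 without mouse 2 or 3. Under other lengths, pseudocounts and scalings, 46 pair differences moved by less than 1 SD, 7 by more without a change of sign, and 1 changed sign. Leaving out 1 mouse gave -0.80 to 0.020 for log2 Pik3cd minus Pik3ca, above 0 without mouse 2, and -1.02 to 0.48 for log2 Tsc1 minus Tsc2, above 0 without mouse 3. With the coding length log2 Tsc1 minus Tsc2 was 0.50. Coding length and transcript length were chosen after seeing the data. The planned length from RefSeq proteins was not run.

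No member passed the adjusted threshold for variability under any edgeR or limma alternative, and 1 or 2 passed an unadjusted p of 0.05 in each. DESeq2, which marks dispersion outliers without a p, marked 24 genes and 0 members. Over all genes, 17 passed in edgeR, against 27 among genes with a mean of at least 5 CPM, 1 without immunoglobulin genes and 0 with a robust prior (394 at an unadjusted p of 0.05). Leaving out 1 mouse gave 13 to 31, the most without mouse 1. With 2 mice a fit has 1 residual degree of freedom. Depth limits the members at or under 3 counts, and 3 mice limit every test of a pair. No paired analysis was possible because only 1 group was profiled.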
